A study of Homo sapiens with 25 samples.

Results

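The transcription factor NRF2, encoded by NFE2L2, and 7 of its well known antioxidant target genes were followed in human cell lines treated with erlotinib, an inhibitor of the EGFR kinase. The members were HMOX1, NQO1, GCLM, GCLC, TXNRD1, SRXN1, OSGIN1 and NFE2L2, chosen by name, and they are 8 of the 19775 genes that the arrays measured with probe sets of 1 gene symbol. Together they had 17 such probe sets of 41091, and 1 further NFE2L2 probe set, whose annotation also lists CSNK2A1, was left out. Each gene is led by its probe set with the highest mean over all 25 arrays, and all 8 leading probe sets were among the 12643 genes tested. They were 203665_at for HMOX1, 201468_s_at for NQO1, 234986_at for GCLM, 202922_at for GCLC, 201266_at for TXNRD1, 225252_at for SRXN1, 219475_at for OSGIN1 and 201146_at for NFE2L2.

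The arrays covered 3 lines, each given erlotinib at 10 µM in medium with fetal bovine serum. BT20, a breast carcinoma line with high EGFR, was sampled at 0 min (4 arrays), 30 min, 6 h and 24 h (3 arrays each). MDA-MB-453, a breast carcinoma line, and a line labelled only MCF were each sampled at 0 min and 24 h, with 3 arrays per time. The comparison group in every line is its own 0 min sample. No group was kept without drug for 24 h, so time in culture and drug cannot be told apart. The labels do not say whether replicates were separate cultures, so p-values measure only the spread between these samples, which may be technical.

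NRF2 is held at a low level by KEAP1, which carries it to a CUL3 and RBX1 ubiquitin ligase for destruction. Oxidants and electrophiles modify KEAP1, NRF2 builds up, pairs with a small MAF protein in the nucleus and binds antioxidant response elements. The control is thus largely at the level of the protein, which arrays do not measure. Its targets make glutathione (GCLC and GCLM), reduce thioredoxin and peroxiredoxins (TXNRD1 and SRXN1), reduce quinones (NQO1) and degrade heme (HMOX1). HMOX1 is also held down by the repressor BACH1, which competes for the same elements.

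The promoter windows that follow are those of the members that held the letters of the response element or of an AP-1 site, with GCLC, the partner of GCLM in 1 enzyme, for comparison. RefSeq promoters of GRCh38.p14 were matched for 7 of the 8 members, in 9 windows of the 250 bases before a RefSeq start; HMOX1 was not matched. The windows shown are GCLM at chr1:93909431-93909680 (minus strand), TXNRD1 start 1 at chr12:104215529-104215778 (plus), TXNRD1 start 2 at chr12:104286782-104287031 (plus), OSGIN1 at chr16:83952990-83953239 (plus) and GCLC at chr6:53545102-53545351 (minus). All are printed 5′ to 3′ in the direction of the gene, and capitals mark a match to the core of the antioxidant response element, TGACNNNGC, or in OSGIN1 to the AP-1 letters TGACTCA, searched on both strands.

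GCLM: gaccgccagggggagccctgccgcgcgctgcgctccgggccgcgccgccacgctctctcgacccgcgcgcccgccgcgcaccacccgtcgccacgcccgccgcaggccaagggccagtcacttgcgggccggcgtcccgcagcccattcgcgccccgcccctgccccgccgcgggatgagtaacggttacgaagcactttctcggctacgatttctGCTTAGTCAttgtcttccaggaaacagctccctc

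TXNRD1 start 1: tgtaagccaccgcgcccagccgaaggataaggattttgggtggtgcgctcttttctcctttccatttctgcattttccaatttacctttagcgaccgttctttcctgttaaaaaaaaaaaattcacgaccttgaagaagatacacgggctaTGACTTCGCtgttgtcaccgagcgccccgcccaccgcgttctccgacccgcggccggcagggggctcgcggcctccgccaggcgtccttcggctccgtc

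TXNRD1 start 2: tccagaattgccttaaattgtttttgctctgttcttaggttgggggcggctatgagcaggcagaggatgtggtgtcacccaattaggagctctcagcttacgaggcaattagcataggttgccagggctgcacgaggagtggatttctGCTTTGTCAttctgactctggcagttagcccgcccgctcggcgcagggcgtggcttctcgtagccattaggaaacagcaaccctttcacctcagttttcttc

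OSGIN1: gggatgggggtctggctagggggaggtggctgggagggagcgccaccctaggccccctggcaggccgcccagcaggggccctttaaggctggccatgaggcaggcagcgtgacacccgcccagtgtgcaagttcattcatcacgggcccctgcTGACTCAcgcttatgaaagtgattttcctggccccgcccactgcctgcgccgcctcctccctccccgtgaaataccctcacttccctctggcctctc

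GCLC: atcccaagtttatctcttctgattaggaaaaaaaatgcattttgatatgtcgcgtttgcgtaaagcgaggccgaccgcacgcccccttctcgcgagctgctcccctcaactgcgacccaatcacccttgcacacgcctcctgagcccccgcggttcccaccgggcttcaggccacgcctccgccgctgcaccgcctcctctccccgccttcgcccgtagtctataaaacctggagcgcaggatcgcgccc

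GCLM held the core 34 to 26 bases before its start, on the strand opposite to the printed one, read there as TGACTAAGC. TXNRD1 held it before both starts, 99 to 91 bases before the first on the printed strand and 102 to 94 bases before the second on the opposite strand. The core occurred in 10.9% of 35116 RefSeq promoter windows of this length and the AP-1 letters, 97 to 91 bases before the OSGIN1 start, in 4.2%. The windows of GCLC, NQO1, SRXN1 and NFE2L2 held neither, which says only that these letters are not in these bases. A match is a description of sequence and was not tested as a binding site.

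Simple checks of the labels were made with EGFR, ERBB2, genes of ERK output and marker lists. EGFR had a log2 value of 12.38 ± 0.15 (SD, n = 4) in BT20 at 0 min and 3.53 ± 0.20 (SD, n = 3) in MDA-MB-453, and ERBB2 was at 8.15 ± 0.46 (SD, n = 4) and 11.07 ± 0.26 (SD, n = 3). An ERK output list holds 8 transcripts that fall when EGFR signalling to ERK stops. In BT20 all 8 were called lower (adjusted p under 0.05 by limma) at 6 h and at 24 h. Of all genes, 25.9% and 18.3% were. At 24 h in MDA-MB-453 0 were called and 7 estimates were below 0, with a median of -0.16. In MCF 1 was called and 7 were below 0, with a median of -1.08. DUSP6, a phosphatase of ERK, fell in BT20 by 5.58 ± 0.20 on the log2 scale at 6 h. Against replicate 4 alone it fell by 5.81 ± 0.28. Its adjusted p at 24 h in MDA-MB-453 was 0.267. DUSP6 and SPRY4 reached BT20 group means under a log2 value of 4, so the size of their falls is not fully measured. None of 4 blood cell markers was above a log2 value of 4 on any array of BT20 or MCF, and their highest value in MDA-MB-453 was 4.54. Of 6 fibroblast and endothelial markers, 2 were above 4 on every array of BT20 and of MCF, and 1 on every array of MDA-MB-453. Their highest values were 11.85 in BT20, 9.15 in MCF and 11.35 in MDA-MB-453, and the source of this signal was not tested. Per the labels the MCF arrays form a second set of 6, apart from the first set of 19 arrays of the other lines. An array's 75th percentile lay between 7.65 and 7.81 in the first set and between 7.27 and 7.32 in the second, so MCF levels are not compared with those of the other lines.

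1 array stood apart from its label. Replicate 4 of BT20 at 0 min correlated over the 12643 genes at 0.990 to 0.992 with the 6 h arrays and at 0.971 to 0.975 with the other 0 min arrays. A second fit therefore gave replicate 4 and the 6 h arrays a shared offset, which compares 6 h with replicate 4 alone and the other times with replicates 1 to 3. With it, 7.23% of genes were called at 6 h, against 52% without. Its values for the members at 6 h stand beside those against all 4 arrays, and rest on 1 array at 0 min.

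**Figure D1:**
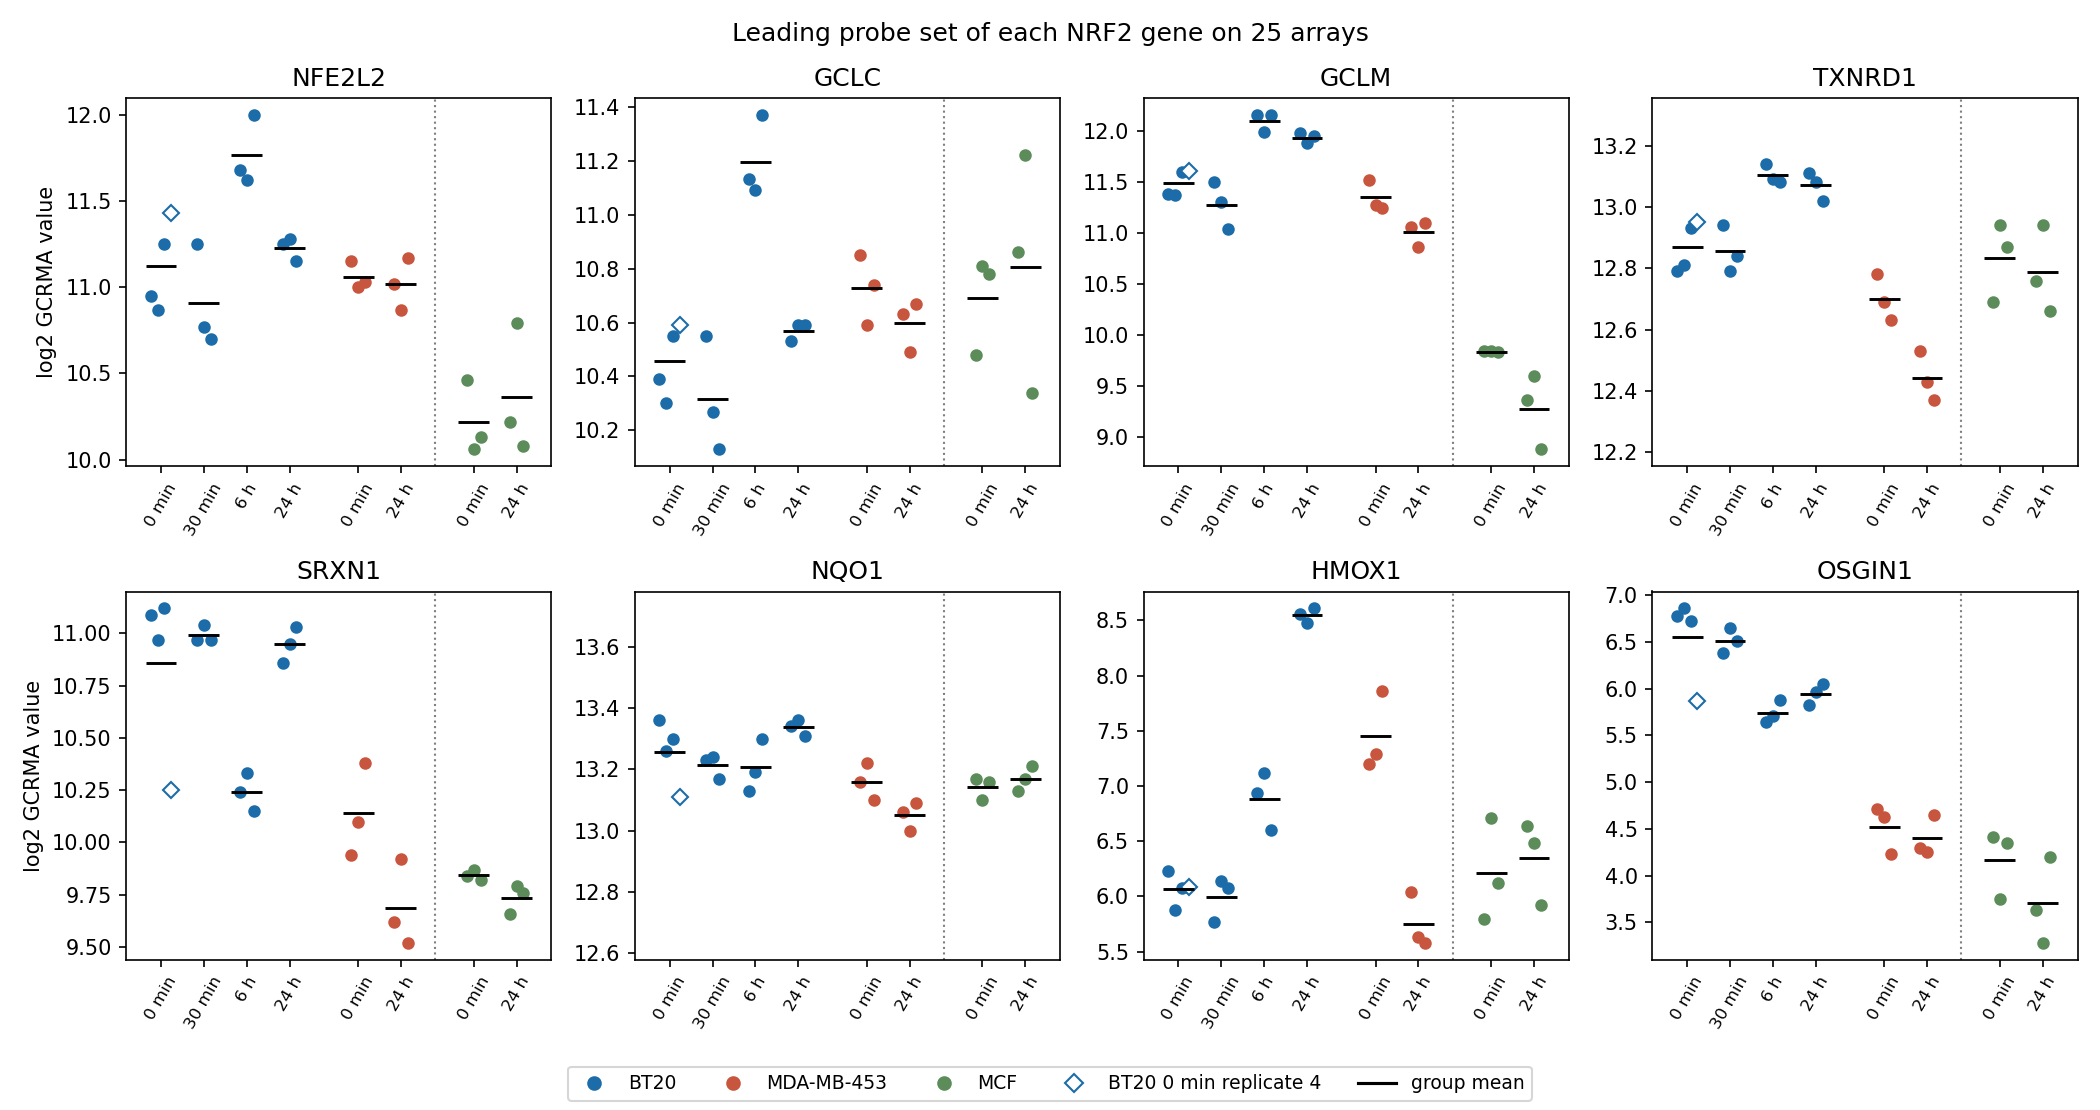
Log2 GCRMA value of the leading probe set of each of the 8 genes on every array, by line and time after erlotinib, with bars at the group means and an open diamond for replicate 4 of BT20 at 0 min. HMOX1 is highest in BT20 at 24 h (8.48 to 8.61), and SRXN1 and OSGIN1 of replicate 4 lie with the 6 h arrays. The dotted line sets off the MCF arrays, whose levels are not comparable with the rest.

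HMOX1, the inducible heme oxygenase, had the largest 24 h change of the 8 genes in BT20 and in MDA-MB-453, upward in the first and downward in the second. In BT20 its log2 values at 0 min were 6.23, 5.88, 6.08 and 6.09, and at 30 min 5.77, 6.14 and 6.08. They were 6.94, 7.12 and 6.60 at 6 h and 8.56, 8.48 and 8.61 at 24 h. Every 6 h array was above every 0 min array, and every 24 h array was above every 6 h array. By limma's moderated test with Benjamini-Hochberg adjustment over the 12643 genes, under which a gene is called at an adjusted p under 0.05, HMOX1 rose by 0.81 ± 0.14 (standard error) at 6 h, 1.76-fold, with an adjusted p of 0.00113. Against replicate 4 alone the 6 h difference was 0.80 ± 0.20 (adjusted p = 0.0308). At 24 h the rise was 2.48 ± 0.14, or 5.56-fold, with an adjusted p of 3.92e-08, and 1.04% of the tested genes rose more. Replicate 4 did not bear on this value, which was 2.48 with and without the shared offset.

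In MDA-MB-453 the HMOX1 values were 7.20, 7.29 and 7.86 at 0 min and 6.04, 5.63 and 5.58 at 24 h. The 2 groups did not overlap, and all 24 h arrays were lower. The fall was 3.25-fold, a difference of -1.70 ± 0.21 on the log2 scale with an adjusted p of 0.00764, and 0.0475% of the tested genes fell further. In MCF the values were 5.80, 6.71 and 6.12 at 0 min and 6.64, 6.48 and 5.92 at 24 h. These overlapped, and the difference was 0.14 ± 0.31 with a 95% confidence interval from -0.61 to 0.88.

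The opposite movements of HMOX1 in BT20 and MDA-MB-453 were tested as the difference between the 24 h changes. It came to 4.18 ± 0.24 between BT20 and MDA-MB-453 (adjusted p = 3.26e-09), where 0.0712% of genes had a larger positive difference. Between BT20 and MCF it was 2.34 ± 0.30 (adjusted p = 4.9e-05). Adjusted p-values of comparisons between BT20 and MCF are too small, since on simulated data far more of their calls were false than the threshold allows. Between MDA-MB-453 and MCF it was -1.84 ± 0.39 with an adjusted p of 0.0674, just above the threshold. That value crossed the threshold without replicate 3 of MCF at 24 h (-2.05, adjusted p = 0.0461) or without replicate 2 of MCF at 0 min (-2.08, adjusted p = 0.0374).

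The lines started from different HMOX1 levels and, by group mean, ended in the reverse order. At 0 min BT20 was lower than MDA-MB-453 by 2.60-fold, a difference of -1.38 ± 0.17 (adjusted p = 1.07e-06), and no array of either group overlapped the other. By group mean in these 2 lines, HMOX1 ran from MDA-MB-453 at 24 h (5.75 ± 0.25, SD) through BT20 at 30 min (6.00 ± 0.20, SD), at 0 min (6.07 ± 0.14, SD) and at 6 h (6.89 ± 0.27, SD) to MDA-MB-453 at 0 min (7.45 ± 0.36, SD) and BT20 at 24 h (8.55 ± 0.07, SD). BT20 at 0 min and 30 min, neighbours in this order, differed by less than their spread, at -0.08 ± 0.14.

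GCLC and GCLM encode the catalytic and the modifier subunit of glutamate-cysteine ligase, the enzyme of the rate-limiting step of glutathione synthesis. Both rose in BT20 at 6 h against all 4 arrays of 0 min, and at 24 h GCLM was still higher while GCLC had returned to the range of 0 min. The GCLC values at 0 min were 10.39, 10.30, 10.55 and 10.59, at 30 min 10.55, 10.27 and 10.13, at 6 h 11.13, 11.09 and 11.37, and at 24 h 10.53, 10.59 and 10.59. The 6 h arrays stood above every other BT20 array. The rise at 6 h was 0.74 ± 0.12, 1.67-fold (adjusted p = 0.000906), and 0.61 ± 0.17 against replicate 4 alone (adjusted p = 0.0448). At 24 h the difference was 0.11 ± 0.12, with a 95% confidence interval from -0.15 to 0.36. The second probe set of GCLC, 202923_s_at, rose by 0.85 ± 0.12 at 6 h and by 0.83 against replicate 4 alone, and differed by -0.19 ± 0.12 at 24 h (adjusted p = 0.224). The third, 1555330_at, was above a log2 value of 4 on 0 of 25 arrays and was not tested.

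The GCLM values in BT20 were 11.38, 11.37, 11.60 and 11.61 at 0 min, 11.50, 11.30 and 11.04 at 30 min, 12.16, 11.99 and 12.16 at 6 h and 11.98, 11.88 and 11.95 at 24 h. All 6 h and 24 h arrays were above all arrays of 0 min and 30 min. The rise was 0.62 ± 0.12 at 6 h (1.53-fold, adjusted p = 0.00207) and 0.45 ± 0.12 at 24 h (1.37-fold, adjusted p = 0.00748). Against replicate 4 alone the 6 h difference was 0.50 ± 0.16 and was not called (adjusted p = 0.0919). The 24 h rise was 0.49 against replicates 1 to 3. Of the other GCLM probe sets, 203925_at rose by 0.69 ± 0.14 at 6 h, and by 1.01 against replicate 4 alone, and 236140_at differed by 0.32 ± 0.18 (adjusted p = 0.15). At 24 h neither was called, at 0.38 ± 0.14 and 0.39 ± 0.18 with adjusted p of 0.0527 and 0.101 over 24585 probe sets.

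In the other lines GCLM lay lower after 24 h without being called. In MDA-MB-453 it was 11.52, 11.28 and 11.25 at 0 min and 11.06, 10.86 and 11.10 at 24 h, with a difference of -0.34 ± 0.12 (adjusted p = 0.134). In MCF it was 9.84, 9.84 and 9.83 at 0 min and 9.36, 9.60 and 8.88 at 24 h, with a difference of -0.56 ± 0.22 (adjusted p = 0.813). A fit to all 25 arrays, which shares 1 estimate of the spread among the lines, called the MCF difference (adjusted p = 0.048). On simulated data most calls of that fit in MCF were false, so this call is weak. The 24 h change of GCLM differed between BT20 and MDA-MB-453 by 0.79 ± 0.17 (adjusted p = 0.00242) and between BT20 and MCF by 1.01 ± 0.22 (adjusted p = 0.00505). All 3 GCLM probe sets gave a called difference between BT20 and MDA-MB-453, from 0.79 to 1.13. Between BT20 and MCF 203925_at was called, at 1.05 ± 0.24. Probe set 236140_at was not, at 0.94 ± 0.46 (adjusted p = 0.224 by limma). The limit on adjusted p-values between BT20 and MCF, given for HMOX1, holds here too. GCLC gave differences of 0.24 ± 0.16 and -0.01 ± 0.25, neither called.

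TXNRD1 encodes cytosolic thioredoxin reductase, which keeps thioredoxin reduced with electrons from NADPH. In BT20 its values were 12.79, 12.81, 12.93 and 12.95 at 0 min, 12.94, 12.79 and 12.84 at 30 min, 13.14, 13.09 and 13.08 at 6 h and 13.11, 13.08 and 13.02 at 24 h. The 6 h and 24 h arrays were above those of 0 min by a small margin. At 6 h the rise was 0.23 ± 0.08, 1.18-fold (adjusted p = 0.0267), and 0.15 ± 0.11 against replicate 4 alone (adjusted p = 0.451). The 6 h call was lost without any 1 of the 3 arrays of 6 h or without replicate 1 or 2 of 0 min, with values of 0.21 to 0.25. At 24 h the difference was 0.20 ± 0.08 (adjusted p = 0.0627), and 0.23 against replicates 1 to 3, which was called (adjusted p = 0.026).

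TXNRD1 lay the other way in MDA-MB-453, at 12.78, 12.69 and 12.63 at 0 min and 12.53, 12.43 and 12.37 at 24 h. The difference was -0.26 ± 0.09 and was not called (adjusted p = 0.152). Its change in BT20 was higher than that in MDA-MB-453 by 0.45 ± 0.11 (adjusted p = 0.00805). Averaging it with its other probe set, 1561080_at, which had a mean of 1.20 in BT20 at 0 min, gave 0.17 (adjusted p = 0.311). In MCF the values were 12.69, 12.94 and 12.87 at 0 min and 12.76, 12.94 and 12.66 at 24 h, and they overlapped.

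SRXN1 encodes sulfiredoxin, which restores overoxidised peroxiredoxins. In BT20 it was 11.09, 10.97, 11.12 and 10.25 at 0 min, 10.97, 11.04 and 10.97 at 30 min, 10.24, 10.33 and 10.15 at 6 h and 10.86, 10.95 and 11.03 at 24 h. Replicate 4 of 0 min lay among the 6 h arrays. The fall at 6 h was -0.62 ± 0.17 (adjusted p = 0.0119) against all 4 arrays of 0 min and -0.01 ± 0.12 (adjusted p = 0.966) against replicate 4 alone. At 24 h SRXN1 differed by 0.09 ± 0.17. In MDA-MB-453 the values were 9.94, 10.10 and 10.38 at 0 min and 9.62, 9.92 and 9.52 at 24 h, a difference of -0.46 ± 0.16 that was not called (adjusted p = 0.133). In MCF they were 9.84, 9.87 and 9.82 and then 9.66, 9.79 and 9.76, a difference of -0.11 ± 0.14. At 0 min SRXN1 was higher in BT20 than in MDA-MB-453 by 0.72 ± 0.17 (adjusted p = 0.00122), although replicate 4 lay within the range of MDA-MB-453.

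OSGIN1, an oxidative stress induced growth inhibitor, was the member that was lower in BT20 at 24 h. Its values were 6.78, 6.86, 6.72 and 5.87 at 0 min, 6.38, 6.65 and 6.51 at 30 min, 5.64, 5.71 and 5.88 at 6 h and 5.83, 5.96 and 6.05 at 24 h. The 24 h arrays were below replicates 1 to 3 of 0 min and around replicate 4. The difference at 6 h was -0.81 ± 0.20 (adjusted p = 0.00643), and -0.13 ± 0.14 against replicate 4 alone (adjusted p = 0.634). At 24 h it was -0.61 ± 0.20 (adjusted p = 0.0255), and -0.84 ± 0.10 against replicates 1 to 3 (adjusted p = 1.04e-05). The 24 h call was lost without replicate 1 or 2 of 24 h or without replicate 1, 2 or 3 of 0 min, with values of -0.51 to -0.62.

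OSGIN1 was not called in the other lines. In MDA-MB-453 it was 4.71, 4.63 and 4.23 at 0 min and 4.30, 4.25 and 4.65 at 24 h, and in MCF 4.41, 3.75 and 4.35 at 0 min and 3.63, 3.28 and 4.20 at 24 h. The groups overlapped within each line. Group means were 4.52 and 4.40 in MDA-MB-453 and 4.17 and 3.70 in MCF. These lie close to or under the log2 value of 4, at which a gene counts as detected here. A fall like that in BT20 could therefore hardly show, which also limits the comparison of changes between lines. Between BT20 and MDA-MB-453 the 24 h change differed by -0.49 ± 0.29 (adjusted p = 0.257), and by -0.72 against replicates 1 to 3 of BT20, which was called (adjusted p = 0.00723). At 0 min BT20 was 4.10-fold higher than MDA-MB-453, a difference of 2.03 ± 0.19 (adjusted p = 5.81e-08).

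NQO1, which reduces quinones by 2 electrons and is widely used as a readout of NRF2, was not called in any comparison by its leading probe set. Its level was high in every group, with group means from 13.05 in MDA-MB-453 at 24 h to 13.34 in BT20 at 24 h. In BT20 the 24 h difference was 0.08 ± 0.08, with a 95% confidence interval from -0.10 to 0.26. In MDA-MB-453 it was -0.11 ± 0.09 and in MCF 0.03 ± 0.14. Of its other probe sets, 210519_s_at fell by 0.34 ± 0.12 in BT20 at 6 h (adjusted p = 0.033 over 24585 probe sets) and differed by -0.28 ± 0.17 against replicate 4 alone (adjusted p = 0.418). Probe set 201467_s_at differed by -0.22 ± 0.09 at 6 h (adjusted p = 0.0621). At 24 h 210519_s_at and 201467_s_at differed by 0.10 ± 0.12 and 0.05 ± 0.09 in BT20 and by -0.29 ± 0.19 and -0.44 ± 0.23 in MDA-MB-453. In MCF they differed by 0.24 ± 0.26 and 0.58 ± 0.62, and none of these was called. The leading probe set ran only from 13.10 to 13.17 in MCF at 0 min, where 201467_s_at ran from 10.13 to 12.36, so its small differences may not show the size of a change.

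NFE2L2 itself, the transcript of NRF2, was by its leading probe set higher in BT20 at 6 h and back near its starting level at 24 h. Its values were 10.95, 10.87, 11.25 and 11.43 at 0 min, 11.25, 10.77 and 10.70 at 30 min, 11.68, 11.62 and 12.00 at 6 h and 11.25, 11.28 and 11.15 at 24 h. The 6 h arrays were above all others, with replicate 4 of 0 min the nearest. The rise at 6 h was 0.64 ± 0.17, 1.56-fold (adjusted p = 0.00824), and 0.33 ± 0.22 against replicate 4 alone (adjusted p = 0.393). At 24 h the difference was 0.10 ± 0.17, with a 95% confidence interval from -0.26 to 0.47. Probe set 1567015_at rose by 1.03 ± 0.36 at 6 h, and its replicate 4 of 0 min, at 6.06, was above the 6 h arrays of 5.91, 5.92 and 5.73. Against that array alone the difference was -0.21 ± 0.25 (adjusted p = 0.695). Probe set 1567013_at, with a mean of 3.60 at 0 min, differed by 0.69 ± 0.21 at 6 h (adjusted p = 0.019) and by 0.18 ± 0.25 against replicate 4 alone (adjusted p = 0.742). Its replicate 4, at 4.12, lay within the 6 h arrays, which ran from 4.00 to 4.50.

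NFE2L2 was not called in the other lines. In MDA-MB-453 it was 11.15, 11.00 and 11.03 at 0 min and 11.02, 10.87 and 11.17 at 24 h, overlapping groups with a difference of -0.04 ± 0.11 and a 95% confidence interval from -0.31 to 0.22. In MCF it was 10.46, 10.06 and 10.13 at 0 min and 10.22, 10.79 and 10.08 at 24 h, also overlapping. At 0 min BT20 and MDA-MB-453 differed in NFE2L2 by 0.07 ± 0.15 by its leading probe set. Probe set 1567015_at was lower in BT20, by -1.45 ± 0.36 (adjusted p = 0.00181 over 24585 probe sets), and 1567013_at differed by 0.24 ± 0.19. At 24 h 1567015_at differed by -0.80 ± 0.36 in BT20, or -0.39 against replicates 1 to 3. It differed by -0.88 ± 0.33 in MDA-MB-453 and -0.68 ± 0.50 in MCF, none called. Probe set 1567013_at gave -0.12, -0.01 and 0.07 in the 3 lines.

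**Figure D2:**
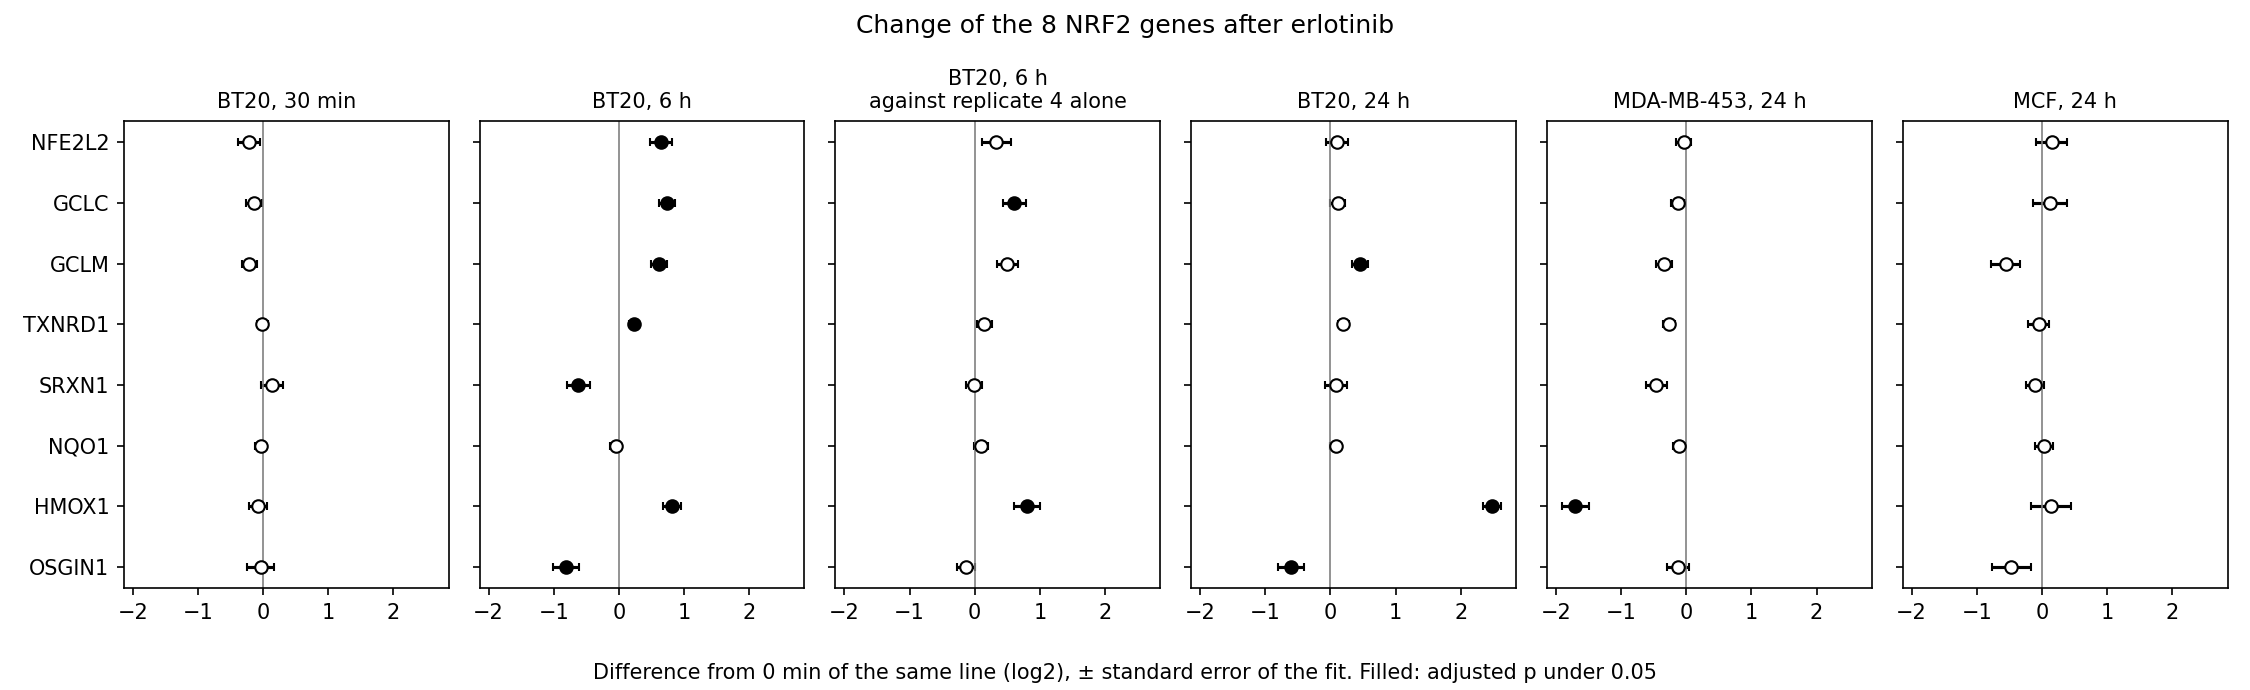
Difference from 0 min of the same line, in log2 units with the standard error of the fit, for the 8 genes in 5 comparisons and, for BT20 at 6 h, also against replicate 4 alone; filled points have an adjusted p under 0.05. HMOX1 lies at 2.48 in BT20 and -1.70 in MDA-MB-453 at 24 h, and of 7 genes called in BT20 at 6 h, HMOX1 and GCLC are called against replicate 4 alone.

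Over the 8 genes, BT20 at 30 min gave no call by limma, 0 at an unadjusted p under 0.05 and 0 in the fit to all 25 arrays, where 0.00791% of all genes were called in BT20 alone and 0.0158% with all arrays. At 6 h, 7 of 8 were called, 5 higher and 2 lower, when 52% of all genes were called, 26.1% higher and 25.9% lower. Against replicate 4 alone, 2 of 8 were called, HMOX1 and GCLC, both higher, at a background of 3.62% called higher and 3.61% lower. At 24 h, 3 of 8 were called, HMOX1 and GCLM higher and OSGIN1 lower, when 42.4% of all genes were called. That share of the members was below the share of all genes. The median difference of the 8 genes was 0.43 at 6 h and 0.11 at 24 h, beside -0.01 and 0.03 over all genes tested. Against replicate 4 alone the 6 h median was 0.24, beside 0.01.

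In MDA-MB-453, 1 of 8 was called, HMOX1, when 8.3% of all genes were called, 5.66% higher and 2.64% lower. All 8 estimates were below 0, with a median of -0.19 beside 0.02 over all genes. In MCF no member was called by limma and 1, GCLM, had an unadjusted p under 0.05, when 0.00791% of all genes were called. The fit to all 25 arrays called GCLM too, with 3.2% of all genes. The 24 h change was higher in BT20 than in MDA-MB-453 for 3 of 8 genes (HMOX1, GCLM and TXNRD1), at a background of 21.8% called and 11.4% called higher. It was higher than in MCF for 2 of 8 (HMOX1 and GCLM), at 13.4% called and 8.53% called higher. These comparisons share the BT20 arrays. Between MDA-MB-453 and MCF no member was called by limma and 1, HMOX1, had an unadjusted p under 0.05, when 0.902% of all genes were called. The fit to all 25 arrays called HMOX1 there, with a difference of -1.84 ± 0.32 (adjusted p = 0.00192 by limma), with the same limit on simulated data as its calls in MCF. At 0 min, 4 of 8 differed between BT20 and MDA-MB-453, SRXN1 and OSGIN1 higher and HMOX1 and GCLC lower, when 74.6% of all genes differed. The GCLC difference was -0.27 ± 0.11 and was lost without replicate 1 or 2 of BT20 or replicate 1 or 3 of MDA-MB-453, and with the mean of its probe sets, at -0.06.

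The members did not all move together over the 13 arrays of BT20, as their correlations describe; the arrays share 4 time points. GCLC and NFE2L2 followed each other most closely (r = 0.96), then GCLM and TXNRD1 (r = 0.93), GCLM and GCLC (r = 0.86) and GCLM and NFE2L2 (r = 0.86). OSGIN1 ran against TXNRD1 (r = -0.92), and SRXN1 ran with OSGIN1 (r = 0.75) and against NFE2L2 (r = -0.82). HMOX1 followed TXNRD1 (r = 0.66) and GCLM (r = 0.63) loosely and GCLC hardly (r = 0.20). These correlations, and those in the next paragraph, were taken without the offset shared by replicate 4 and the 6 h arrays. They therefore also hold what those arrays have in common.

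The genes most like each member over the same 13 arrays were all outside the NRF2 lists, which hold only a small part of the 12643 genes. For HMOX1 they were B3GALT4 (r = 0.993), AAMDC (r = 0.993) and EPB41L4A (r = 0.992). For GCLC they were STRN (r = 0.993), PBRM1 (r = 0.986) and RNF13 (r = 0.985). For GCLM they were PPM1B (r = 0.980), HS6ST2 (r = 0.979) and NCOA7 (r = 0.978). These were the top 3 of 12643 genes for each member. For NFE2L2 they were CKAP2, XIAP and TMEM123 (r = 0.986 to 0.990), for TXNRD1 KIAA1958, HMGN3 and SECISBP2L (r = 0.964 to 0.968), and for OSGIN1 ITGB2-AS1, MTHFD1 and HGS (r = 0.980 to 0.993). For SRXN1 they were EMD, RCC1L and RRBP1 (r = 0.982 to 0.987). For NQO1, whose values moved little, they were CD47, COL1A1 and RBBP7, at r = 0.893 to 0.924.

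The regulators and partners of NRF2 were read from a list of 10 tested genes. In BT20 at 6 h, 3 rose and 3 fell, near the shares of 26.1% and 25.9% over all genes. Against replicate 4 alone 0 rose and 2 fell, at 3.62% and 3.61% of all genes. The 2 were MAFF, a small MAF protein that pairs with NRF2, and NFE2L3, a relative of NRF2. MAFF was lower by -1.58 ± 0.11 (adjusted p = 2.51e-06) and by -1.42 against replicate 4 alone. NFE2L3 was lower by -1.47 ± 0.16 (adjusted p = 7.93e-05) and by -1.10 against replicate 4 alone. KEAP1, the sensor that restrains NRF2, fell by 1.09 ± 0.30 against all arrays of 0 min and differed by -0.04 against replicate 4 alone (adjusted p = 0.926). BACH1, the repressor of HMOX1, rose by 0.84 ± 0.21 and differed by 0.13 against replicate 4 alone (adjusted p = 0.64) and by 0.10 with the mean of its probe sets (adjusted p = 0.405). RBX1 rose by 0.71 ± 0.18 and differed by 0.13 against replicate 4 alone. BTRC, a ligase subunit that also marks NRF2 for destruction, rose by 0.79 ± 0.30 and had the opposite sign, -0.25 ± 0.22, against replicate 4 alone. That call of BTRC was also lost with the mean of its probe sets (0.17) and without any 1 array of 6 h or replicate 1, 2 or 3 of 0 min (0.62 to 0.91).

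At 24 h in BT20, 4 regulators rose and 2 fell, when 24.1% of all genes rose and 18.3% fell. NFE2L3 went from 10.07 to 6.61 in group mean, a difference of -3.46 ± 0.16 (adjusted p = 1.02e-08). MAFF went from 11.19 to 9.59, a difference of -1.60 ± 0.11 (adjusted p = 3.05e-07). The other small MAF gene tested, MAFG, rose by 0.59 ± 0.14 (adjusted p = 0.00426). NFE2L1, a relative that drives proteasome genes, rose by 0.63 ± 0.12 (adjusted p = 0.00101), and BTRC by 1.15 ± 0.30 (adjusted p = 0.00883). With the mean of its probe sets BTRC differed by 0.20 and was not called (adjusted p = 0.0877). SQSTM1, the autophagy receptor that binds KEAP1, rose by 0.46 ± 0.16 (adjusted p = 0.0396), a call lost without replicate 1, 2 or 3 of 24 h or replicate 2 of 0 min, with values of 0.41 to 0.52. Against replicates 1 to 3 it was 0.29. KEAP1 differed by 0.42 ± 0.30, CUL3 by -0.20 ± 0.08 and BACH1 by -0.32 ± 0.21, none of them called. CUL3 was called in 6 of 11 alternative settings, among them against replicates 1 to 3 (-0.22, adjusted p = 0.0274), and BACH1 with the mean of its probe sets (-0.40, adjusted p = 0.00658).

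No regulator was called in MDA-MB-453 at 24 h by limma, 2 had an unadjusted p under 0.05, and 0 were called in the fit to all 25 arrays, which called 5.77% of all genes. MAFG differed there by 0.48 ± 0.12 (adjusted p = 0.0642) and NFE2L3 by -0.02 ± 0.22. In MCF 0 were called, 2 had an unadjusted p under 0.05 and 1 was called in the fit to all 25 arrays. That fit called 3.2% of all genes in MCF, and on simulated data most of its MCF calls were false. The 24 h change of NFE2L3 was lower in BT20 than in MDA-MB-453 by -3.44 ± 0.27 (adjusted p = 1.2e-07), and that of MAFF by -1.08 ± 0.19 (adjusted p = 0.000657). At 0 min 4 of the 10 regulators were called higher in BT20 than in MDA-MB-453 and 3 lower. Of all genes, 36.7% were called higher and 37.9% lower. Among the regulators that were higher in BT20 were NFE2L3 by 4.13 ± 0.19, MAFF by 3.64 ± 0.13 and MAFG by 2.69 ± 0.13.

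**Figure D3:**
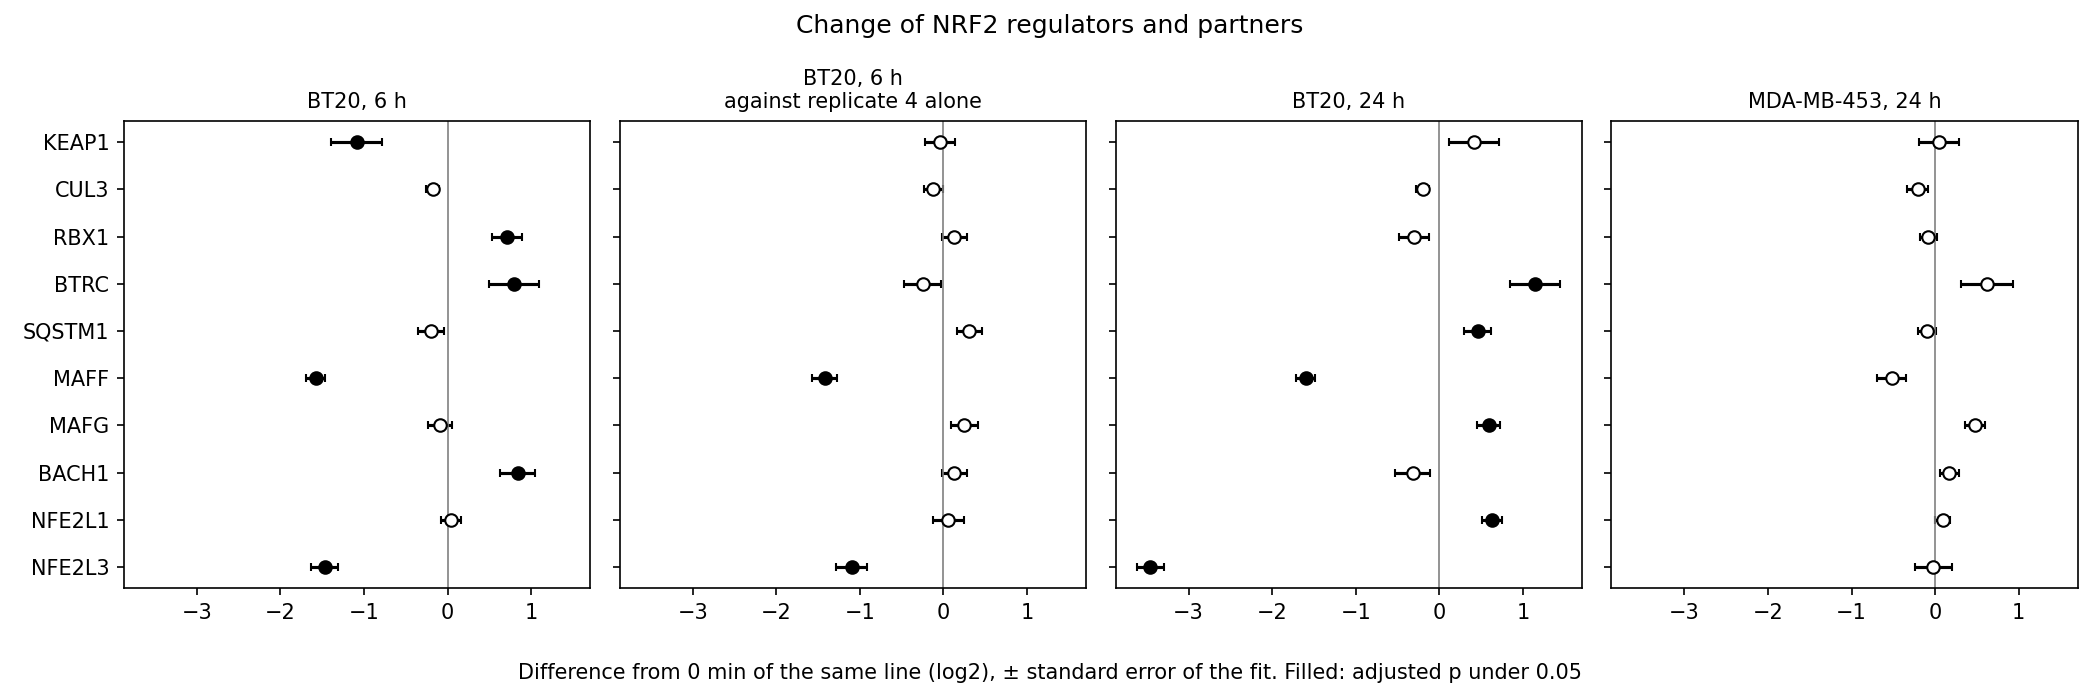
Difference from 0 min of the same line, in log2 units with the standard error of the fit, for 10 regulators and partners of NRF2 in BT20 at 6 h, in BT20 at 6 h against replicate 4 alone, in BT20 at 24 h and in MDA-MB-453 at 24 h; filled points have an adjusted p under 0.05. MAFF and NFE2L3 are lower in all 3 BT20 panels, and KEAP1 is at -1.09 in the first and -0.04 in the second.

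A list of 34 further tested NRF2 targets showed how far the rest of the pathway moved. In BT20 at 24 h, 17 rose and 3 fell, with 14 not called, when 24.1% of all genes rose and 18.3% fell. The median of the list was 0.40, beside 0.03 over all genes. AKR1C3, an aldo-keto reductase, rose by 2.48 ± 0.10 (adjusted p = 4.75e-09). ABCC3, an export pump for conjugates, rose by 2.75 ± 0.15 (adjusted p = 3.26e-08). The 17 include 3 genes with a group mean under the log2 level of 4, at which a gene counts as detected here, and 14 without one. Of the 3, GPX2, a glutathione peroxidase of epithelia, went from a mean of 2.74 to 5.38 and GSTA4, a glutathione transferase, from 2.58 to 4.53, so their starting levels are not measured. The third, GSTM3, was under that level at both times. Those that fell were the export pumps ABCG2 (-1.48 ± 0.24), ABCC2 (-0.99 ± 0.19) and ABCC4, the last with both means under that level. Against replicates 1 to 3 of 0 min, 18 rose and 3 fell, at a background of 30.6% and 24.9%. AKR1C1 and AKR1C2, also on the list, are near-identical copies whose probe sets may share signal.

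At 6 h these targets were split. Against all arrays of 0 min 8 rose and 10 fell, near the shares of 26.1% and 25.9% over all genes. Of the 8, GPX2 had both group means under the level of 4, and 7 were measured at both times. Against replicate 4 alone 2 rose and 1 fell, at 3.62% and 3.61% of all genes. SLC7A11, the cystine importer that feeds glutathione synthesis, rose by 0.77 ± 0.09 (adjusted p = 0.000142), by 0.98 against replicate 4 alone and by 0.49 with the mean of its probe sets. AKR1C3 rose by 0.52 ± 0.10 and by 0.53 against replicate 4 alone (adjusted p = 0.0499). GSR, glutathione reductase, rose by 1.09 ± 0.24 against all 4 arrays and by 0.47 with the mean of its probe sets, and differed by 0.21 against replicate 4 alone (adjusted p = 0.39). The count of 18 at 6 h was 10 to 11 without replicate 2 or 3 of 6 h or replicate 1 or 2 of 0 min.

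In MDA-MB-453 at 24 h, 1 of the 34 targets rose and 4 fell, and 29 were not called, when 5.66% of all genes rose and 2.64% fell. SLC7A11 rose by 1.50 ± 0.13 (adjusted p = 0.00342). PIR, an iron-binding nuclear protein, was lower by -0.94 ± 0.21 and TKT, transketolase, by -0.71 ± 0.15, or by -1.12 with the mean of its probe sets. AKR1B10 is counted among the 4, but its group means of 3.12 and 2.23 were both under the level of 4 and show no measured fall. ABCC4 went from a mean of 4.55 to 3.16, under that level. The call for AKR1B10 was lost without any 1 of the 6 arrays, for PIR without replicate 1 of 24 h or any array of 0 min, and for TKT without those or replicate 3 of 24 h. In MCF 0 of 34 were called by limma, 3 had an unadjusted p under 0.05 and 4 were called in the fit to all 25 arrays. The latter fit called 3.2% of all genes there, and most of its MCF calls were false on simulated data.

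Between BT20 and MDA-MB-453 the 24 h change differed for 20 of these 34 genes, higher in BT20 for 18 and lower for 2, at a background of 11.4% higher and 10.4% lower. Of the 18, 8 were under the level of 4 at both times in 1 of the lines, where no change could be measured, and 10 were measured on both sides. Among the 10, ABCC3 differed by 2.50 ± 0.20 and PIR by 2.51 ± 0.22. AKR1C3 and GPX2 are among the 8. The 2 that were lower in BT20 were SLC7A11 (-1.34 ± 0.15) and ABCG2, which was under the level of 4 in MDA-MB-453 at both times. Against MCF, 10 were higher and 2 lower, at 8.53% and 4.92% of all genes. Of the 10, AKR1B10 was under the level of 4 at both times in 1 of the lines. GPX2 had a group mean under that level, and 8 were measured throughout. On simulated data far more of the calls in the comparison of BT20 with MCF were false than the threshold allows. Several of these targets were at the floor of the array in MDA-MB-453 at 0 min, among them AKR1C3 at a mean of 2.27 and ME1, malic enzyme, at 2.04. At 0 min 19 of the 34 were higher in BT20 than in MDA-MB-453 and 8 lower, at 36.7% and 37.9% of all genes.

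**Figure D4:**
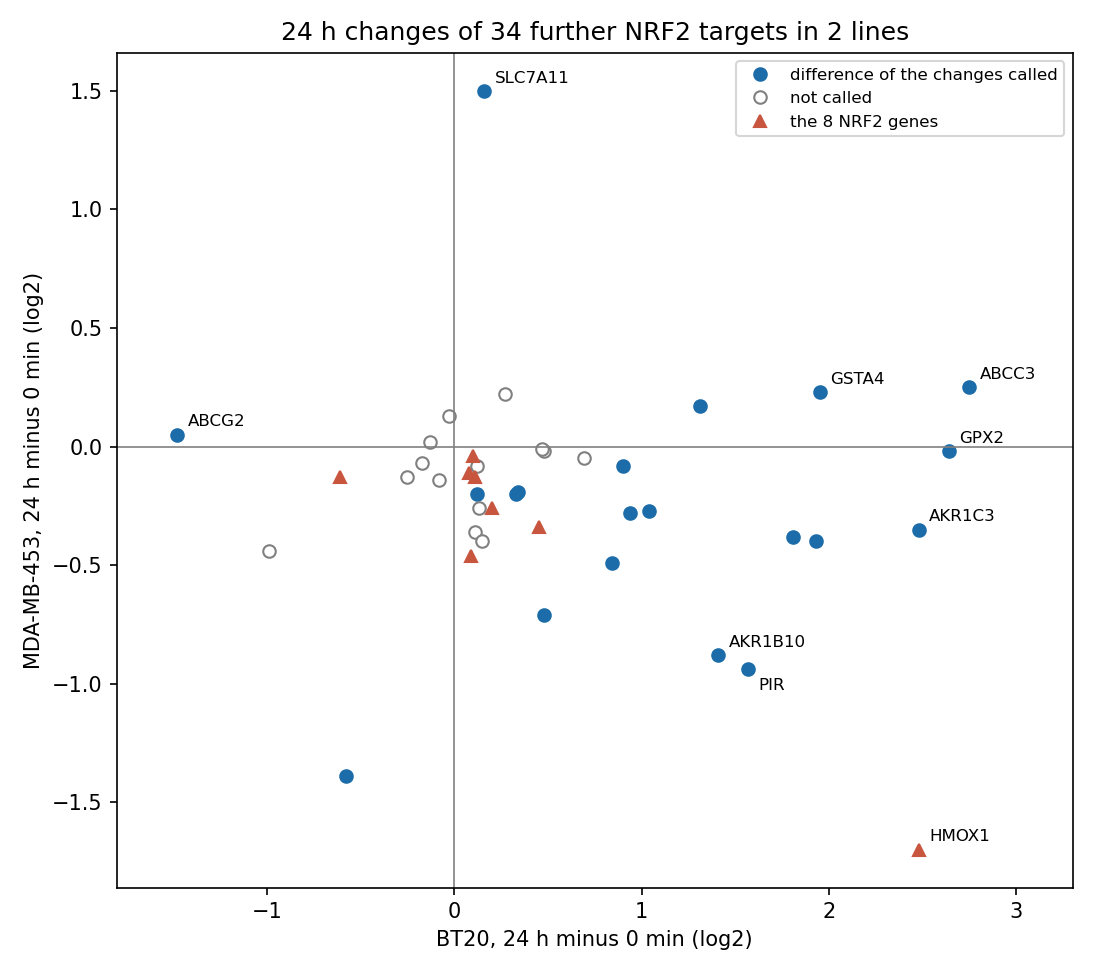
Difference between 24 h and 0 min in BT20 (horizontal) and MDA-MB-453 (vertical), both in log2 units, for 34 further NRF2 targets as circles and the 8 members as triangles; filled circles are targets whose 2 changes differed by the fit. AKR1C3 and ABCC3 lie at 2.48 and 2.75 in BT20, SLC7A11 at 1.50 in MDA-MB-453, and HMOX1 lies alone at the lower right.

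Other genes of the glutathione and thioredoxin systems, 23 tested and not on the target list, gave 10 that rose and 3 that fell in BT20 at 24 h, when 24.1% of all genes rose and 18.3% fell. In the fit to all 25 arrays 6 rose and 1 fell, when 18.9% of all genes rose and 13.9% fell. CHAC1, which degrades glutathione and is also known as a target of ATF4, rose by 4.01 ± 0.14 in BT20 (adjusted p = 1.54e-09) and by 2.75 ± 0.09 in MDA-MB-453 (adjusted p = 0.000181). SESN2, sestrin 2, rose by 2.58 ± 0.18 in BT20 and by 1.65 ± 0.24 in MDA-MB-453, a call lost without replicate 1 of 24 h or replicate 1 or 2 of 0 min, with values of 1.56 to 1.60. SELENOP, a secreted selenoprotein, rose by 5.37 ± 0.28 in BT20, and by 2.2 with the mean of its probe sets. MSRB1, a methionine sulfoxide reductase, rose by 0.88 ± 0.09 in BT20 and fell by 0.44 ± 0.09 in MDA-MB-453 (adjusted p = 0.0341), and the changes differed by 1.32 ± 0.12. The fall in MDA-MB-453 lost its call without any 1 of the 6 arrays, with values of -0.49 to -0.41. The 3 that fell in BT20 were PRDX4 (-0.60 ± 0.10), MSRA (-0.68 ± 0.19) and GLRX2 (-0.34 ± 0.12). The calls of MSRA and GLRX2 were lost in the fit to all 25 arrays (adjusted p = 0.144 and 0.134), and that of GLRX2 without any 1 array except replicate 4 of 0 min (-0.37 to -0.26).

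NQO1 and several other targets are also known to respond to the aryl hydrocarbon receptor, so 6 genes of that pathway were read beside them. CYP1A1, its most used target, rose by 2.77 ± 0.33 in BT20 at 24 h (adjusted p = 2.56e-05) and by 2.30 ± 0.18 in MDA-MB-453 (adjusted p = 0.00302). CYP1B1 rose by 0.52 ± 0.12 and CYP1A2 by 0.77 ± 0.23 in BT20, and the receptor AHR fell by 0.60 ± 0.16, or by 0.39 with array weights. The CYP1A2 call was lost without replicate 1 or 2 of 24 h (0.64 and 0.69), and its value was 0.44 with the mean of its probe sets. Of the 6 genes, 3 were called higher and 1 lower in BT20 at 24 h, beside 24.1% and 18.3% of all genes. The other genes, TIPARP and AHRR, were not called. In MDA-MB-453 1 was called, and in MCF 0. All 6 estimates were above 0 in both of these lines, with medians of 0.25 and 0.57. The part of this pathway in the values of the NRF2 targets was not tested.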

How the data were processed

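Total RNA was hybridised to 25 Affymetrix arrays. The deposited values are log2 expression per probe set, made with GCRMA 2.20.0 in R 2.11.1 per the submitters' processing notes; GCRMA subtracts a sequence-dependent background, normalizes arrays to each other and summarises probes. Background subtraction sets absent genes near a floor, and arrays processed separately need not share a scale. No further normalization was applied, and the work was done in R 4.3.3.

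Of 54613 probe sets, 41091 had 1 gene symbol, 1801 several and 11721 none, and 41037 of the 41091 symbols were matched by gene identifier. The probe set with the highest mean led each of 19775 genes, and the 12643 genes that passed 4 on the log2 scale in 3 or more arrays were tested. Linear models with a mean per group were fitted with limma 3.58.1 (lmFit and eBayes) to the arrays of the line, or of the 2 lines compared, with Benjamini-Hochberg adjustment over the 12643 genes and a threshold of 0.05. Changes are differences of group means and errors are standard errors unless SD is written. The number of arrays limits the precision.

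All members and every probe set of 1 symbol are named; of other lists, every regulator may be named and otherwise up to 4 called genes per direction and comparison by smallest p; the 3 genes of highest Pearson correlation over the BT20 arrays are named for each member. The members and lists were chosen with earlier results of these data known. The fits were tested on simulated data with known changes. In MCF alone the fit recovered too few of them for an absent call to carry information, and most MCF calls of a fit to all 25 arrays were false. False calls were also well above the threshold for the 24 h change of BT20 against MCF, and somewhat above it against MDA-MB-453. The labels do not say whether replicate numbers pair the samples, and the main fits treat them as unpaired. Correlations of same-numbered deviations ran from -0.64 to 0.80, which cannot decide it. Alternatives were other fits, filters, probe set rules, normalizations, array weights, a replicate block and leaving out each array.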

Additional observations from a re-analysis of the deposited data

Results flagged for a closer look

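Dixon's test of the 4 arrays of BT20 at 0 min was applied to the 15 member probe sets above the detection filter, and chance flags about 1 in 20. It singled out 3 values. Replicate 4 gave 10.25 for SRXN1, with the other 3 at 10.97 to 11.12. Replicate 4 also gave 5.87 for OSGIN1, with the others at 6.72 to 6.86. Replicate 3 gave 11.36 for GCLM probe set 236140_at, with the others at 10.76 to 10.85. Replicate 4 is the array whose profile over all tested genes lay nearer the 6 h arrays, and the part of this in the SRXN1 and OSGIN1 values was not tested beyond the comparison with that array alone.

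The 24 h change differed between lines, by a test of the difference itself, in 5 cases. HMOX1 changed more in BT20 than in MDA-MB-453 by 4.18 (adjusted p = 3.26e-09) and than in MCF by 2.34 (adjusted p = 4.9e-05) on the log2 scale. GCLM differed by 0.79 (adjusted p = 0.00242) and by 1.01 (adjusted p = 0.00505) in the same comparisons. TXNRD1 differed between BT20 and MDA-MB-453 by 0.45 (adjusted p = 0.00805).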

How the results depend on the processing

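Of 1392 member values recomputed, 1334 kept their direction and side of the threshold, 27 lost and 31 gained a call, and 0 called values reversed. Members called moved from 7 to 2 in BT20 at 6 h with the offset shared by replicate 4 and the 6 h arrays, and from 3 to 5 at 24 h with array weights. In MDA-MB-453 the count of 1 became 2 with the mean of probe sets or trended and robust eBayes, 3 with array weights and 0 with the replicate block, where HMOX1 stayed at -1.70 (adjusted p = 0.083). In MCF 0 became 1 with all 25 arrays. For MDA-MB-453 against MCF, 0 became 1 with all 25 arrays, 3 with array weights and 0 to 1 when each array was left out. Whether replicate numbers pair the samples cannot be told, so the calls lost with the block remain a limit. The block also lost the calls of SLC7A11, ABCC4, PIR, TKT, AKR1B10, SESN2, MSRB1 and CYP1A1 in MDA-MB-453, and the block changed no other count of members by over 1.5 times.

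Among called values of the other lists, signs turned for BTRC (-0.25) and AHRR (0.15) in BT20 at 6 h with the shared offset. In the level at 0 min they turned for BACH1 (0.12 with the mean of probe sets, 0.26 with the replicate block), ABCC3 (0.03 with the mean of probe sets) and SQSTM1 (-0.14 with the block). The cause was not tested.

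Calls over all genes moved at 6 h from 6579 to 914 with the shared offset. In MDA-MB-453 they moved from 1049 to 3 with the replicate block, 4048 with array weights and 261 to 870 without an array. In MCF 1 became 404 with all 25 arrays, and 14 with array weights. For BT20 against MDA-MB-453, 2752 became 4156 with the shared offset or without replicate 4 and 4652 with array weights. For BT20 against MCF, 1700 became 8172 with array weights and 2929 with the block. For MDA-MB-453 against MCF, 114 became 11 with the block, 68 with trended and robust eBayes, 296 with all arrays and 5429 with array weights. With every probe set tested, counts were 11859 at 6 h, 9596 (from 5358) at 24 h, 4524 and 2979 for BT20 against MDA-MB-453 and MCF, and 17906 (from 9433) for the level at 0 min.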
